A study of Mus musculus with 14 samples.

Results

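The genes described here are 4 actins and 2 alpha-actinins of the mouse heart ventricle: Acta1 (skeletal muscle alpha-actin), Actc1 (cardiac alpha-actin), Actb (beta-actin), Actg1 (gamma-actin), and Actn1 and Actn4, the non-muscle alpha-actinins. They were chosen by gene symbol, by a rule that used no values, but with earlier results of these data known. All 6 of 6 were found among the 22136 genes listed in both deposited tables. Actn1 and Actn4 are not actins but proteins that crosslink actin filaments, so the set is named here by its genes. The libraries were made from polyA-enriched RNA of ventricles of wild-type (WT) mice and of mice labelled as knockouts of Rad, the GTPase encoded by Rrad that restrains the cardiac calcium channel. Each genotype label had mice with a sham operation and mice with transverse aortic constriction (TAC), a banding of the aorta that makes the left ventricle pump against a high pressure. WT mice gave 3 sham and 4 TAC libraries, and so did the mice labelled Rad KO. The labels put TAC 4 weeks ahead of tamoxifen, the drug that starts an inducible knockout, and give this in the same words for all groups. The harvest is placed over 2 months past TAC and over 1 month past the knockout. The sources used here do not give the age, sex or strain of the mice, the Cre that drove the knockout or whether the WT mice carried it. Nor do they state that each library came from a separate animal, so p-values measure only the spread between these libraries.

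Actin is the building block of the thin filament of the sarcomere and of the cytoskeleton. In striated muscle the filaments on which myosin pulls are made of Acta1 and Actc1 proteins, which are almost the same in sequence. The adult mouse heart uses mainly Actc1, and a rise of Acta1, the main form of skeletal muscle that is also made in the developing heart, is a classic part of the hypertrophic gene programme. Actb and Actg1 proteins form the cytoskeleton of nearly all cells, and in the ventricle the fibroblasts, vessel cells and immune cells hold much of them. Actn1 and Actn4 tie actin filaments into bundles at adhesions and in stress fibres, whereas Actn2 does so at the Z-disc of cardiomyocytes. Transcription of many actin genes is driven by serum response factor (SRF) with its partners of the MRTF family. SRF binds a DNA element called the CArG box, and MRTF is held back by unpolymerised actin.

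Total counts ran from 14546176 to 23314792 per library. Rrad, the targeted gene, ran from 127.6 to 242.1 CPM (counts per 1e+06 counts of the scaled library) in the WT libraries and from 119.1 to 242.3 in those labelled Rad KO, and the test did not separate the labels in sham (log2 fold change -0.17 ± 0.23 SE, adjusted p = 0.944) or TAC hearts. The knockout label was therefore not visible in this gene, and "Rad KO" below means only the label. Esr1, the oestrogen receptor gene, set libraries apart: WT sham 2 and 3 had 1503 and 2223 CPM and WT sham 1 had 1.27. Rad KO sham 1 and 3 had 2018 and 1933 CPM and Rad KO sham 2 had 1.12. It ran from 338 to 2461 in the Rad KO TAC libraries and from 0.556 to 1.61 in the WT TAC libraries. Within the WT label the libraries high in Esr1 were thus sham hearts alone, and the part this has in the differences below cannot be told apart from TAC without leaving libraries out. Of the cardiomyocyte markers 10 of 10 were present, with a summed level of 47297 to 68668 CPM. Of 6 atrial markers, 3 (Bmp10, Sln and Myl7) stayed under 1 CPM in every library. Nr2f2, Nr2f1 and Myl4 did not, and the 6 had a summed level of 15.2 to 25.5 CPM.

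The 4 actin genes are close copies, and the start of each coding sequence is shown to let a reader see how much there is to tell them apart. The lines give the first 60 coding bases on the GRCm38 build, from GENCODE transcripts, with capitals at the bases that differ from the partner gene (Acta1 against Actc1, and Actb against Actg1). They lie at chr8:123893638-123893697 for Acta1, chr2:114051972-114052031 for Actc1, chr5:142905627-142905686 for Actb and chr11:120348032-120348091 for Actg1, all in coding exons on the minus strand.
Acta1: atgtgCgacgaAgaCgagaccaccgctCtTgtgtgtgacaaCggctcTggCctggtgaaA
Actc1: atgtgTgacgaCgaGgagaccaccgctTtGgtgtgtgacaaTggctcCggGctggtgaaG
Actb: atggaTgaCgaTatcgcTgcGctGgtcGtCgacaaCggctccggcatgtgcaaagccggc
Actg1: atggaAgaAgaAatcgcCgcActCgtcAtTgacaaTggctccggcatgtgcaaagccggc
Each pair differs at 9 of these 60 bases. Over the whole coding sequence, 86.2% of bases were the same in Acta1 and Actc1, with 157 of 1134 differing and a longest identical run of 29 bases. Actb and Actg1 shared 88.7% of bases, with a longest identical run of 62, and Actn1 and Actn4 shared 78.7%, with a longest run of 65. Runs between a striated and a cytoplasmic actin were as long: 77 bases for Acta1 and Actb and 59 for Acta1 and Actg1. A read as short as such a run could fit both genes that share it. The sources used here do not say how the authors' counting treated such reads, so low levels of one actin beside a high level of another carry that uncertainty.

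The window just before the transcription start is shown for the 3 genes in which a CArG box was found, because these boxes are where SRF is known to bind. RefSeq windows on GRCm38.p6 were given for 5 of the 6 genes, not for Actb. The lines give the 250 bases before the start, with the CArG box in capitals, at chr8:123894776-123895025 for Acta1, chr2:114052876-114053125 for Actc1 and chr11:120348496-120348745 for Actg1, all on the minus strand. The start is that of RefSeq, and it is not the gene end in the authors' tables: the Actc1 window lies inside the gene as those place it, and the Actg1 window overlaps its end.
Acta1: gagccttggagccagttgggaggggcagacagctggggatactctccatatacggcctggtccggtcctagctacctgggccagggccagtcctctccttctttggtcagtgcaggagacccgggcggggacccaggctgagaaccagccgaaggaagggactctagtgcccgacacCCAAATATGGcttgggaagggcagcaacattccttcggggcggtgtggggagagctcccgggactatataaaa
Actc1: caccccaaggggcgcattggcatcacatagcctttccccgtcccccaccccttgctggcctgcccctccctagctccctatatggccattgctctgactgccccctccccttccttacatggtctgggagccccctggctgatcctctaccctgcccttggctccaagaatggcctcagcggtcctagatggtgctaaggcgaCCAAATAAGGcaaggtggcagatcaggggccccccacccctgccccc
Actg1: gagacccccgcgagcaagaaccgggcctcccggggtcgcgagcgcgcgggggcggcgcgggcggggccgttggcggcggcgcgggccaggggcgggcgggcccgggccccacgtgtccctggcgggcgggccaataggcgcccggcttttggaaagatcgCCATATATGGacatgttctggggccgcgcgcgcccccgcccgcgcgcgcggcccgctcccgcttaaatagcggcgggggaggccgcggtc
The box lay 73 to 64 bases before the start in Acta1, 47 to 38 in Actc1 and 90 to 81 in Actg1. It reads as a CArG box on either strand, and of 32851 promoter windows of this length 1.47% held one. The windows of Actn1 and Actn4 held no such letters. Both other motifs searched on both strands, TATAAA (in 12.4% of all windows) and CATTCC (in 12.6%), were found in Acta1, at 7 to 2 and 46 to 41 bases before the start. CATTCC was also found in Actn4, and no match overlapped another motif. A match describes letters, not a site in use: Acta1 and Actc1 rose with TAC as described below, while Actg1, which holds the same element, did not pass the test.

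Both striated actins were higher in TAC hearts when both labels were fitted in 1 model. Acta1 rose 2.93-fold and Actc1 1.71-fold, from levels that already placed Actc1 at rank 10 and Acta1 at rank 33 of 22136 genes by mean CPM. Of the 6 genes 3 rose over both labels (Acta1, Actc1 and Actn1) and none fell, while Actb, Actg1 and Actn4 did not pass. In this comparison 11.1% of the 14731 genes tested passed an adjusted p of 0.05, and 6.36% passed as higher. Within the WT label alone and within the Rad KO label alone, none of the 6 passed, against a background of 3.09% and 1.69% of genes. In whole tissue, a change in the RNA per cell and a change in the share of a cell type cannot be told apart.

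Acta1, at chr8:123891769-123894751 on the minus strand of mm10, had the widest range of the 6 as a ratio of its highest to its lowest library. WT sham 1 to 3 had 180.4, 1134 and 1182 CPM of Acta1. WT TAC 1 to 4 had 3543, 6283, 1861 and 2581 CPM. Every WT TAC library was above every WT sham library, as for 8.20% of genes, and WT sham 1 was far below its 2 fellows. The Rad KO libraries had 1016, 713 and 1678 CPM in sham and 2543, 3272, 1271 and 1988 CPM in TAC. Here the groups overlapped, since Rad KO TAC 3 was below Rad KO sham 3. The WT means were 832 ± 565 (SD, n = 3) in sham and 3567 ± 1937 (SD, n = 4) in TAC hearts. The Rad KO means were 1136 ± 493 (SD, n = 3) and 2269 ± 848 (SD, n = 4). From low to high the means ran from WT sham over Rad KO sham and then Rad KO TAC to WT TAC, and each neighbouring pair in that order overlapped in its libraries.

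The log2 fold change of Acta1 with TAC was 2.10 ± 0.59 (SE) in WT, with an adjusted p of 0.0932 by edgeR's quasi-likelihood test with Benjamini-Hochberg adjustment. It was 1.01 ± 0.33 in Rad KO (adjusted p = 0.158, edgeR) and 1.55 ± 0.39 over both labels (adjusted p = 0.0174, edgeR). Over both labels the call ended when Rad KO sham 1 was left out (adjusted p = 0.0501, edgeR). In the authors' deposited table the WT change of Acta1 was 2.11 with an adjusted p of 0.0281, and the Rad KO change was 1.00 with an adjusted p of 0.205. In each sham group Acta1 was lowest in the library that was low in Esr1, WT sham 1 and Rad KO sham 2. Without WT sham 2 and 3 the log2 fold change over both labels was 2.65. It was 2.52 when Rad KO sham 2 was left out as well, an alternative chosen after seeing the data. In these fits WT sham was 1 library, WT sham 1, the lowest of all in Acta1, and it was taken to vary like the other groups.

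Actc1, at chr2:114047282-114053548 on the minus strand, moved less from library to library. WT sham 1 to 3 had 7273, 4855 and 5517 CPM, and WT TAC 1 to 4 had 7443, 9085, 10181 and 10281 CPM. All 4 WT TAC libraries were above all 3 sham libraries, but WT TAC 1 only just passed WT sham 1. With the Rad KO label, sham libraries had 6355, 4258 and 5372 CPM and TAC libraries 12952, 10428, 10115 and 6039 CPM. The Rad KO groups overlapped through Rad KO TAC 4, which lay below Rad KO sham 1, while the other 3 TAC libraries were well above. The log2 fold change was 0.66 ± 0.17 (SE) in WT (adjusted p = 0.0735, edgeR) and 0.90 ± 0.24 in Rad KO (adjusted p = 0.0919, edgeR). Over both labels it was 0.77 ± 0.16 (adjusted p = 0.00622, edgeR).

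In the authors' deposited table Actc1 passed in both labels, with log2 fold changes of 0.66 (adjusted p = 0.00161) in WT and 0.89 (adjusted p = 0.00266) in Rad KO. WT sham 1, the WT sham library without Esr1, was the highest of its group in Actc1 and the lowest in Acta1. Without WT sham 2 and 3, which were high in Esr1, the rise of Actc1 over both labels was 0.62. In that fit WT sham was 1 library, so whether the call depends on those 2 libraries cannot be told.

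**Figure D1:**
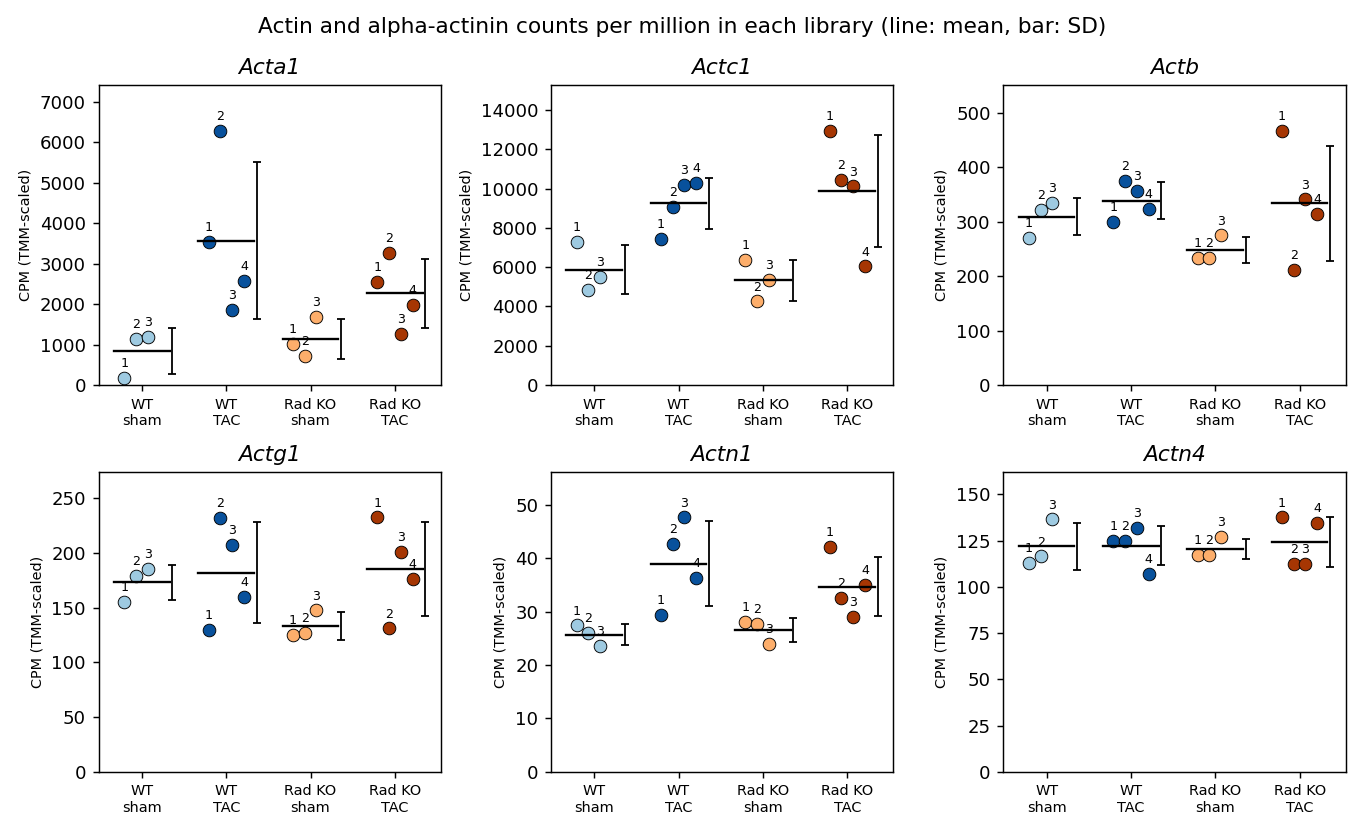
Levels in CPM (TMM-scaled, linear axes from 0) of the 6 genes in each of the 14 libraries, as points numbered by library, with a line at each group's mean and a bar of 1 SD. Acta1, Actc1 and Actn1 sit higher in the WT TAC libraries than in every WT sham library, while the Actn4 groups lie on top of each other near 122 CPM.

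The cytoplasmic actins did not pass in any comparison. Actb, at chr5:142903115-142906754 on the minus strand, had 271, 322 and 335 CPM in the WT sham libraries and 300.5, 376, 356 and 324 CPM in the WT TAC libraries. With the Rad KO label it had 234, 234 and 275 CPM in sham and 467, 211, 341 and 315 CPM in TAC. The groups overlapped in both labels, and Rad KO TAC held both the highest and the lowest library of all 14. The log2 fold change with TAC was 0.14 ± 0.12 (SE) in WT (adjusted p = 0.616, edgeR) and 0.44 ± 0.22 in Rad KO (adjusted p = 0.332, edgeR). Over both labels it was 0.28 ± 0.13 (adjusted p = 0.189, edgeR), and it passed when Rad KO TAC 2, the lowest library, was left out (0.36, adjusted p = 0.0327, edgeR).

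Actg1, at chr11:120345690-120348542 on the minus strand, had 155, 179 and 185 CPM in the WT sham libraries and 129, 232, 207 and 159.8 CPM in the WT TAC libraries. With the Rad KO label it had 125, 127 and 147 CPM in sham and 232, 131, 201 and 176 CPM in TAC. The sham and TAC groups overlapped in both labels. The log2 fold change was 0.08 ± 0.18 (SE) in WT (adjusted p = 0.877, edgeR), 0.48 ± 0.17 in Rad KO (adjusted p = 0.188, edgeR) and 0.27 ± 0.14 over both labels (adjusted p = 0.211, edgeR). The Rad KO change passed when Rad KO TAC 2 was left out (0.61, adjusted p = 0.0322, edgeR), so that library decides whether Actg1 is called there.

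Of the alpha-actinins, Actn1 rose and Actn4 did not pass. Actn1, at chr12:80167547-80260371 on the minus strand, had 27.4, 26.1 and 23.6 CPM in the WT sham libraries and 29.4, 42.7, 47.7 and 36.3 CPM in the WT TAC libraries. With the Rad KO label it had 28.1, 27.8 and 24.0 CPM in sham and 42.1, 32.6, 29.0 and 35.0 CPM in TAC. The Rad KO TAC libraries lay above all Rad KO sham libraries, as for 8.27% of genes. Actn1 was the one gene of the set for which this held in both labels, as it did for 2.69% of genes. Its log2 fold change was 0.61 ± 0.15 (SE) in WT (adjusted p = 0.0635, edgeR), 0.39 ± 0.14 in Rad KO (adjusted p = 0.183, edgeR) and 0.49 ± 0.11 over both labels (adjusted p = 0.00923, edgeR). In the authors' deposited table it passed in WT (0.61, adjusted p = 0.00977) and not in Rad KO (0.38, adjusted p = 0.156). Without WT sham 2 and 3, with WT sham as 1 library, its rise over both labels was 0.44.

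Actn4, at chr7:28893248-28962340 on the minus strand, was the steadiest gene of the set. The WT libraries had 113, 116 and 136 CPM in sham and 125, 125, 132 and 107 CPM in TAC. The Rad KO libraries had 117, 117 and 127 CPM in sham and 137, 112, 112 and 135 CPM in TAC. Its 4 group means lay between 120.4 and 124 CPM. Its log2 fold change with TAC was 0.01 ± 0.11 (SE) in WT (adjusted p = 0.987, edgeR), 0.05 ± 0.10 in Rad KO (adjusted p = 0.843, edgeR) and 0.02 ± 0.07 over both labels (adjusted p = 0.873, edgeR). The 3 changes were each smaller than their standard error.

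**Figure D2:**
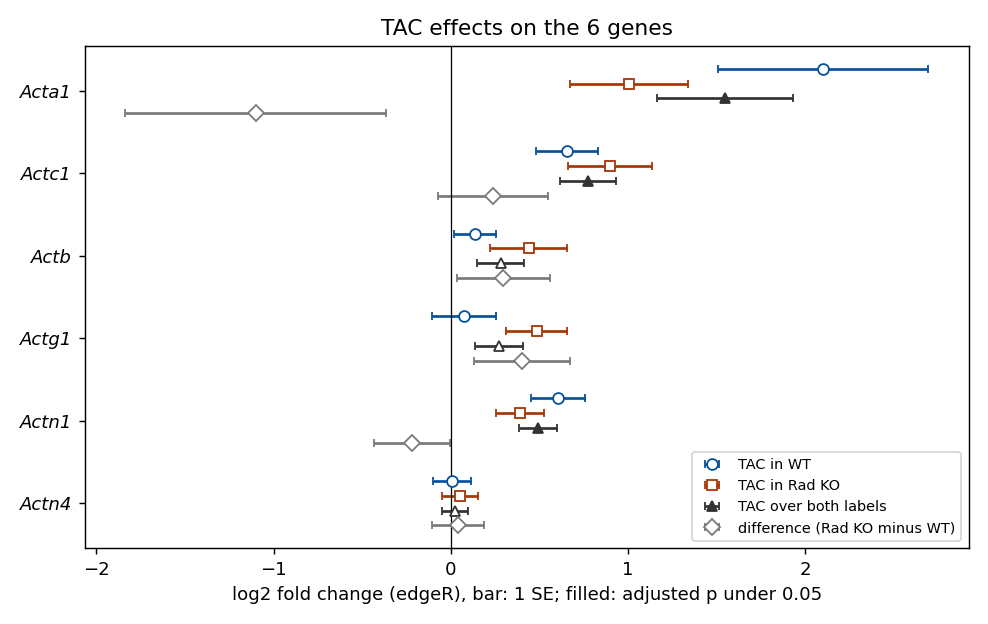
Log2 fold changes of TAC over sham for the 6 genes in WT, in Rad KO and over both labels, with the difference between labels (Rad KO minus WT), each with a bar of 1 SE from edgeR and filled where the adjusted p is under 0.05. The filled points are Acta1 (1.55), Actc1 (0.77) and Actn1 (0.49) over both labels.

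Next to these, the related genes of each family moved in their own ways. Acta2, the smooth muscle alpha-actin of vessel walls and of activated fibroblasts, had 157.7, 609 and 674 CPM in the WT sham libraries and 72.6 to 156 CPM in the WT TAC libraries. With the Rad KO label it had 397 to 1026 CPM in sham and 98.8 to 708 CPM in TAC. Acta2 fell over both labels (log2 fold change -1.70 ± 0.40 SE, adjusted p = 0.0124, edgeR) and in WT (-2.14 ± 0.42, adjusted p = 0.0264, edgeR), opposite to Acta1 and Actc1. Within WT sham, its low library was again WT sham 1, close to WT TAC 1. With WT sham 2 and 3 left out, WT sham was 1 library, and the change of Acta2 was -0.53 in WT and -0.90 over both labels. No call is read from such a fit, since 1 library gives a group no spread of its own. Actn2, the Z-disc alpha-actinin, rose over both labels like Actn1 (0.40 ± 0.09, adjusted p = 0.0093, edgeR). Its change was 0.35 without WT sham 2 and 3. Actg2, the smooth muscle gamma-actin, ran from 0.111 to 1.35 CPM, and Actn3, the alpha-actinin of fast skeletal fibres, stayed under 1 CPM in every library.

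The comparison of the labels asked whether the actins differ between Rad KO and WT hearts. None of the 6 genes passed in sham or in TAC hearts, or in the test of the difference between the TAC effects. The same held for nearly all genes: 0.00% of 14731 passed in sham, 0.0136% in TAC and 0.00% for the difference, against 5.75%, 7.76% and 5.12% at an unadjusted p under 0.05, and DESeq2 called 10, 91 and 8 genes. In sham hearts Actg1 was lower in each Rad KO library than in each WT library, which 7.75% of genes were, with a log2 fold change of -0.38 ± 0.20 (SE, adjusted p = 0.831, edgeR). Actb was next, at -0.32 ± 0.20 (adjusted p = 0.848, edgeR), and the Acta1 difference was 0.45 ± 0.56 (adjusted p = 0.934, edgeR). In TAC hearts the Acta1 difference was -0.65 ± 0.48 (adjusted p = 0.818, edgeR), and all 6 genes overlapped between the labels, where 3.73% of genes did not. The TAC effect on Acta1 differed by -1.10 ± 0.74 on the log2 scale between Rad KO and WT (adjusted p = 0.979, unadjusted p = 0.155, edgeR). The TAC effect on Actc1 differed by 0.24 ± 0.31 and that on Actg1 by 0.40 ± 0.27 (both adjusted p near 0.98, edgeR).

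The balance between the striated actins was read as the ratio of Acta1 to Actc1 counts in each library, which does not depend on how libraries are scaled. Actc1 exceeded Acta1 in all 14 libraries. WT sham 1 to 3 had ratios of 0.0248, 0.234 and 0.214, and WT TAC 1 to 4 had 0.476, 0.692, 0.183 and 0.251. WT TAC 1 and 2 were above every other library, while WT TAC 3 was below WT sham 2 and 3. In Rad KO the ratio was 0.160 in sham 1, 0.167 in sham 2 and 0.312 in sham 3. It was 0.196, 0.314, 0.126 and 0.329 in Rad KO TAC 1 to 4, so the Rad KO groups covered the same range. Corrected for gene length, Acta1 made up from 2.55% (WT sham 1) to 42.1% (WT TAC 2) of the sum of both genes.

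None of the 6 comparisons of this ratio passed a two-sided exact permutation test over libraries. The log2 ratio was 1.71 higher in WT TAC than in WT sham (exact p = 0.171, 0.426 adjusted over the 6 comparisons, smallest possible p 0.0286). It was 0.15 higher in Rad KO TAC than in Rad KO sham (exact p = 0.771, adjusted 0.771, smallest possible p 0.0286). Over both labels it was 0.93 higher (exact p = 0.127, adjusted 0.426), with an exact p of 0.0443 when Rad KO TAC 3 was left out. The test thus did not separate the groups, and with 3 or 4 libraries a group it cannot show that the balance was unchanged. The WT value rests on WT sham 1: without it the difference fell to 0.65, and with it as the 1 WT sham library, WT sham 2 and 3 left out, the difference was 3.82, a value with no test. Rad KO and WT differed by 0.92 in sham hearts (exact p = 0.70, where the smallest possible p is 0.1) and by -0.64 in TAC hearts (exact p = 0.286, adjusted 0.429). The TAC effect on the log2 ratio differed by -1.56 between Rad KO and WT (exact p = 0.213, adjusted 0.426). Acta1 rose more than Actc1 in its own fold change over both labels, but the test of the ratio did not separate them.

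**Figure D3:**
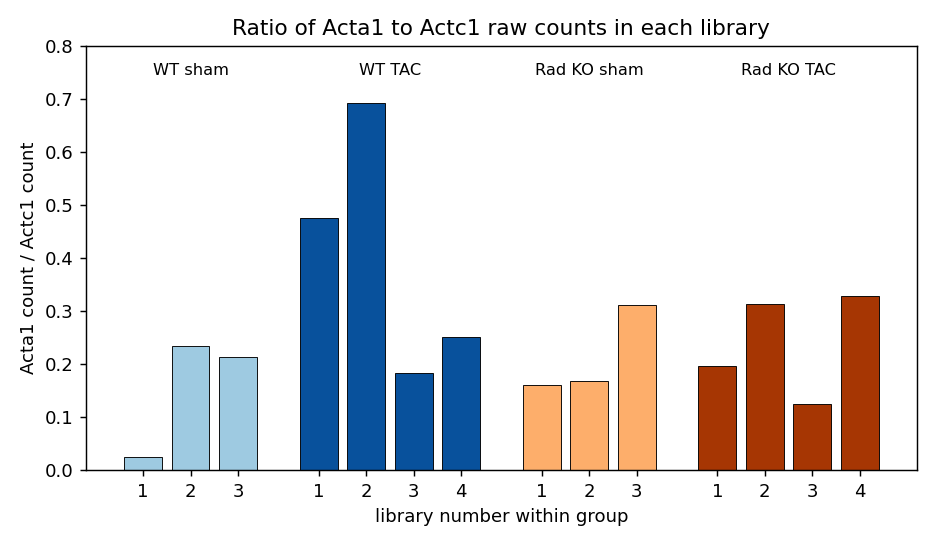
Ratio of Acta1 to Actc1 raw counts in each library, as bars from 0 grouped by operation and label. WT TAC 1 and 2 reach 0.476 and 0.692, WT sham 1 is at 0.0248, and the other 11 bars lie between 0.126 and 0.329.

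To place all actin genes on a common scale, counts were divided by the gene length in the tables, and each gene was given as a share of the 6 actins (with Acta2 and Actg2). The striated pair made up 85.7% to 97.2% of this sum. Actc1 alone ranged from 56.1% in WT TAC 2 to 92.5% in WT sham 1, and Acta1 from 2.42% to 40.9% in the same libraries taken the other way round. The mean share of Acta1 was 12.0% in sham and 27.3% in TAC hearts of WT mice, and 15.8% and 18.7% with the Rad KO label. The mean share of Acta2 was 5.93% in sham and 0.754% in TAC hearts of WT mice, and 8.79% and 2.60% with the Rad KO label. Acta2 was thus the third actin of the sham hearts on average. Actb held 0.894% to 2.81% and Actg1 0.558% to 1.58%. Shares of a sum move against each other by construction, so they are given with no test.

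**Figure D4:**
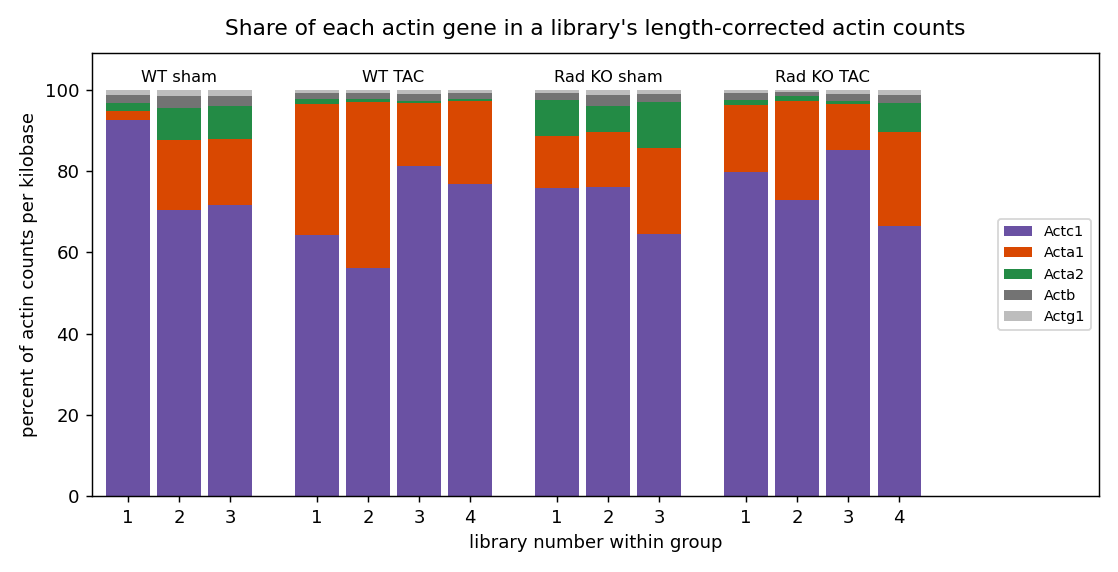
Share of each actin gene in the length-corrected actin counts of each library, as stacked bars in percent, by group. Actc1 fills 56.1% to 92.5% of each bar, Acta1 2.42% to 40.9%, and the slice of Acta2 is thin in the WT TAC libraries (0.526% to 1.22%).

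Within the pairs of close relatives, the balance of the cytoplasmic actins hardly moved. Per kilobase, Actb exceeded Actg1 by 1.60 to 2.31 times in the 14 libraries, with a mean of 1.82 ± 0.18 (SD, n = 14). Actn4 exceeded Actn1 by 4.32 ± 0.80 times (SD, n = 3) in sham and 2.91 ± 0.62 times (SD, n = 4) in TAC hearts of WT mice. In Rad KO the factor was 4.12 ± 0.57 (SD, n = 3) in sham and 3.26 ± 0.27 (SD, n = 4) in TAC. In both labels the mean factor was lower in TAC, with Actn1 higher and Actn4 about level.

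Actb and Actg1 went up and down together across libraries. On log2 values their Pearson correlation was 0.90 over the 14 libraries, and 0.87 once each group's mean was taken out, so it was present among libraries of the same group. For Acta1 and Actc1 the correlation was 0.44 over all libraries and -0.24 after the group means were taken out. The striated pair thus rose with TAC in the group means without following each other among libraries of a group. Actc1 and Actn1 had 0.72 and 0.35, and Acta1 and Actn1 had 0.53 and -0.16. Libraries share depth and scaling, so these values are descriptions only.

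**Figure D5:**
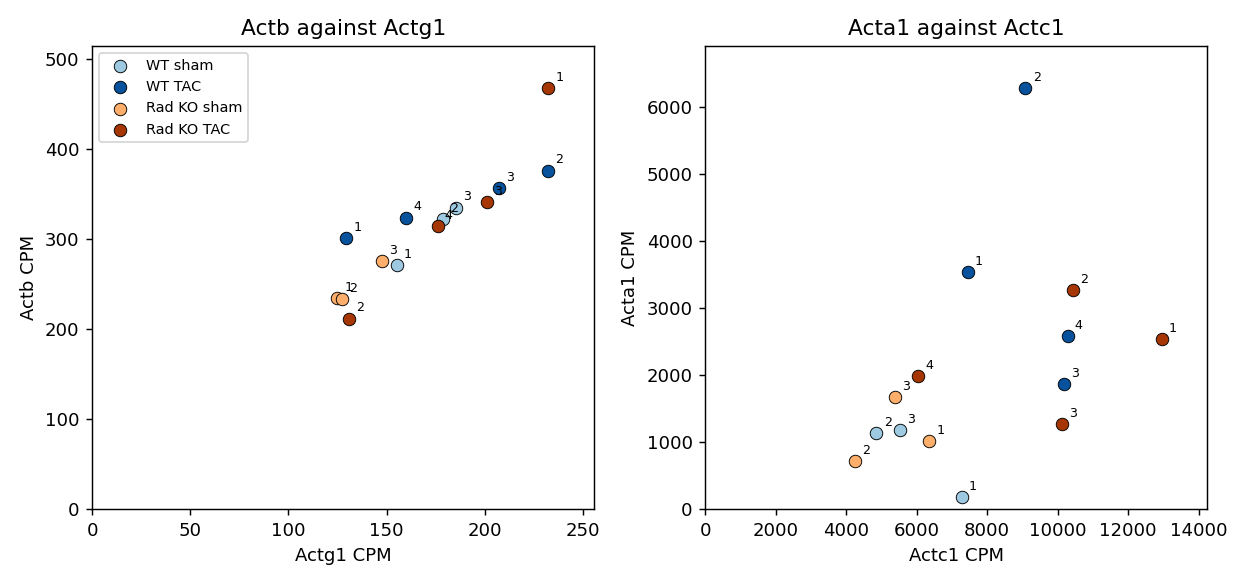
Levels in CPM (linear axes from 0) of Actb against Actg1 (left) and of Acta1 against Actc1 (right), with a point for each library, numbered within its group. The Actb points follow a line (r = 0.90 on log2 values), while the Acta1 points spread widely at a given Actc1 level (r = 0.44).

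The genes most like each member in pattern were taken as the 3 protein-coding genes with the highest Pearson correlation of log2 CPM over the 14 libraries, among 8247 genes compared. For Actb they were Arpc1b, a subunit of the actin-nucleating Arp2/3 complex (0.95), Col6a2, a collagen VI chain (0.92), and Lcp1, the plastin of white blood cells (0.92). For Actg1 they were Coro1c, a coronin (0.91), Rcn3 (0.91) and Tpm3, a tropomyosin (0.91). For Acta1 they were Gas2l1, a protein that links actin to microtubules (0.83), Fbln2, a fibulin of the extracellular matrix (0.81), and Mxra8 (0.80). For Actc1 they were Casc4 (0.93), Bop1, a factor of ribosome assembly (0.89), and Eif3j1, a translation initiation factor subunit (0.88). Among the 3 of Actn1, Ifngr1, a chain of the interferon gamma receptor, reached 0.94 and Arpc2, another Arp2/3 subunit, 0.91, beside Ptcd2 at 0.92. The likest gene of Actn4 was Phc2, at 0.78. After the group means were taken out, the values for the Actb and Actg1 genes stayed between 0.87 and 0.94. The values were 0.55 to 0.69 for Acta1, 0.72 to 0.91 for Actc1, 0.81 to 0.89 for Actn1 and 0.80 to 0.85 for Actn4.

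Genes that act on actin were then read by role, over both labels. Among those that SRF and MRTF rely on or that tune them, 4 of 15 tested rose and 1 fell, with a median log2 fold change of 0.13 beside 0.00 for all genes. Over all genes 11.1% were called and 6.36% were called as higher, and the counts of this and the following lists are to be read against these shares. Ankrd1, a stress-responsive protein of the sarcomere, rose by 2.18 ± 0.29 on the log2 scale (adjusted p = 0.000583, edgeR). Abra (STARS), an actin-binding activator of SRF, rose by 1.42 ± 0.22 (adjusted p = 0.00119, edgeR), and both also rose within Rad KO. Fhl1, a LIM protein of the sarcomere, rose by 1.22 ± 0.23 (adjusted p = 0.00369, edgeR). Of 22 SRF target genes other than the members, 7 rose and 1 fell, with a median of 0.38. Ctgf, a matricellular protein, rose by 2.64 ± 0.41 (adjusted p = 0.00119, edgeR) and Cyr61 by 0.89 ± 0.14 (adjusted p = 0.00126, edgeR), while Myl9, a smooth muscle myosin light chain, fell by 1.60 (adjusted p = 0.0352, edgeR). Myl9 had 34.2 to 221 CPM in the WT sham libraries and 17.95 to 34.8 CPM in the WT TAC libraries. Without WT sham 2 and 3, with WT sham as 1 library, the change of Myl9 over both labels was -0.54 and that of Acta2 was -0.90. In that fit the median log2 fold change was 0.14 for the regulators and 0.37 for the SRF targets. No call is read from it, so whether the calls in these lists depend on WT sham 2 and 3 cannot be told. Srf, Fhl1 and Zyx stand in more than 1 list.

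Of 19 proteins that crosslink filaments, 7 rose and none fell, with a median of 0.21. The median was 0.29 without WT sham 2 and 3. Xirp2, a protein of the intercalated disc, rose by 1.54 ± 0.20 (adjusted p = 0.000502, edgeR), Nrap, which helps to assemble myofibrils, by 0.83 ± 0.11 (adjusted p = 0.000613, edgeR), and Synpo2l by 1.49 ± 0.22 (adjusted p = 0.000946, edgeR). Without WT sham 2 and 3 the changes of Xirp2, Nrap and Synpo2l were 1.42, 0.76 and 1.37. Of 24 genes of nucleation and elongation 4 rose, with a median of 0.13 (0.12 without WT sham 2 and 3). Among them were Enah (0.91 ± 0.15, adjusted p = 0.00189, edgeR), which extends filaments, Arpc5l (0.48 ± 0.08, adjusted p = 0.00194, edgeR), an Arp2/3 subunit, and Lmod2 (0.65 ± 0.15, adjusted p = 0.0108, edgeR), which nucleates and lengthens the cardiac thin filament. Of 20 genes of monomer binding and turnover 3 rose, Twf2, Cfl2 and Coro6, by 0.25 to 0.47.

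Of 7 genes that modify actin 3 rose, the oxidising enzymes Mical1, Mical2 and Mical3 by 0.46 to 0.58, and Msrb2, which acts against methionine oxidation, fell by 0.30. Of 10 capping genes Capg rose by 0.75, of 10 tropomyosins and thin filament genes Nebl fell by 0.33, and of 7 actin-related proteins Actr3 fell by 0.24. None of the 14 genes of the CCT chaperonin and prefoldin, which fold new actin, passed over both labels (median 0.07). Without WT sham 2 and 3 the changes were 0.42, 0.62 and 0.37 for Mical1, Mical2 and Mical3, and -0.28 for Msrb2. In that fit they were 0.85 for Capg, -0.32 for Nebl and -0.27 for Actr3.

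Markers of some cell types also changed with TAC, most of all those of activated fibroblasts, and their part in these results was not tested. The summed level of 8 markers of activated fibroblasts ran from 63.6 to 174 CPM in WT sham and from 291 to 1040 CPM in WT TAC. It ran from 66.0 to 67.4 CPM in Rad KO sham and from 157 to 824 CPM in Rad KO TAC. Over both labels 7 of the 8 markers rose. Of 11 general fibroblast markers 5 rose, and none of 10 endothelial and 10 macrophage markers passed. Of 12 smooth muscle and mural markers 2 fell, among them Acta2, whose fall was smaller without WT sham 2 and 3. Of 10 cardiomyocyte markers 2 rose and 2 fell. The markers of skeletal muscle, where Acta1 is the main actin, were mixed. Myh1, Myh2, Myh8, Pvalb and Actn3 were under 1 CPM in every library, while Myl1, Mybpc2 and Casq1 were the highest of the list. The summed level of its 13 markers in both tables was 73.7 to 174 CPM. Its median was 95.6 CPM in WT sham and 116 in WT TAC, and 96.7 in Rad KO sham and 156 in Rad KO TAC. The sham and TAC ranges overlapped in both labels. Whether skeletal muscle had a part in the Acta1 levels was not tested. Mybpc2 was the marker of that list that rose, by 1.88 on the log2 scale.

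Some members overlap genes of the opposite strand. Acta1 lies within Gm20388 of the opposite strand, which the tables do not list, and Actc1 within A530058N18Rik of the opposite strand, which had 13 counts over the WT libraries and 18 over the Rad KO libraries. Actn4 shares 316 bases with Capn12 of the opposite strand, which had 78 and 66 counts. The sources used here do not say whether the authors counted by strand or how they treated reads in both genes, so reads that the members may have lost or gained there are unknown.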

How the data were processed

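PolyA-enriched ventricular RNA of 14 libraries was sequenced, and a table for each genotype label was used, in which the authors deposited raw counts per gene, per the file headers, with gene lengths. The log2 fold change, p-value and adjusted p-value of TAC over sham deposited by the authors were copied for the members alone. The deposited FPKM served as an alternative for the ratio; the deposited normalized signal was not used. The submitters' processing notes name HISAT2, DESeq2, edgeR and the build mm10, with no versions; the sources used here do not say how reads were assigned.

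Counts were tested with edgeR 4.0.16 (R 4.3.3): genes were kept by filterByExpr (count of at least 10, total of at least 15), scaled by TMM and tested with the quasi-likelihood F test, and Benjamini-Hochberg adjustment over all genes tested, with a threshold of 0.05. TAC within a label was fitted on its 7 libraries. The other contrasts used 1 model of the 4 groups on 14 libraries and the 22136 genes in both tables. CPM were scaled to TMM library sizes. A pseudocount of 1 CPM was added for correlations. All 6 members passed the filter in each fit. The ratio was tested by exact permutation (SciPy 1.17.1). The fits were tested on simulated data.

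No 2 replicates agreed within sampling noise (lowest chi-square per degree of freedom 8.80). Groups came from the labels. The members and the gene lists were chosen with earlier results of these data known, and some lists come from that earlier work. Named genes were the members, their family, Rrad and Esr1, up to 3 genes per list and direction by smallest p over both labels, and the 3 genes most like each member; 1 gene and 1 list are not reported here. Alternatives were DESeq2 1.42.0, its size factors, no filter, other thresholds, a replicate block, and leaving libraries out.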

Additional observations from a re-analysis of the deposited data

How the results depend on the processing

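Over both labels the 3 calls (Acta1, Actc1 and Actn1) were made also with DESeq2, with its size factors, with no filter and with the replicate block. At an adjusted p under 0.01 Actc1 and Actn1 were left, and with a log2 fold change of at least 1 Acta1 was left (1 call). Without WT sham 2 and 3 WT sham was 1 library, so no count is given for that fit. The count over both labels ran from 2 to 4 when each library was left out in turn. Acta1 was lost without Rad KO sham 1 and Actb gained without Rad KO TAC 2. In WT the count of 0 became 3 with DESeq2 and with no filter (Acta1, Actc1, Actn1) and 2 in the model of 14 libraries (Acta1, Actn1). It ran from 0 to 2 on leaving out a library, with Actc1 and Actn1 called without WT TAC 1. In Rad KO the count of 0 became 1 with DESeq2 (Actc1) and 2 with no filter (Acta1, Actc1). It ran from 0 to 1 on leaving out a library, with Actg1 called without Rad KO TAC 2 and Actc1 without Rad KO TAC 4. The cause was not tested. In the contrasts of the labels and in the difference of TAC effects no member was called under any alternative run.

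Between same-numbered libraries, deviations from group means had correlations of -0.18 to 0.17. With 3 or 4 libraries a group, these values cannot decide whether the numbers pair the libraries. With the replicate block the count stayed 0 in WT, became 1 in Rad KO (Actc1, 1.09, adjusted p = 0.00508, edgeR) and stayed 3 over both labels, and the difference of the log2 ratio in Rad KO turned to -0.037.

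Changes near 0 turned sign. When each library was left out in turn, the TAC change in WT ran from -0.059 to 0.21 for Actg1 and from -0.047 to 0.10 for Actn4. For Actn4 it ran from -0.0054 to 0.10 in Rad KO and from -0.0057 to 0.065 over both labels. The difference of Rad KO from WT in sham ran from -0.031 to 0.79 for Acta1, -0.29 to 0.036 for Actc1, -0.011 to 0.12 for Actn1 and -0.073 to 0.069 for Actn4. In TAC it ran from -0.062 to 0.27 for Actc1, -0.23 to 0.15 for Actb, -0.11 to 0.16 for Actg1 and -0.035 to 0.073 for Actn4. The difference of TAC effects on Actn4 ran from -0.042 to 0.10. Without WT sham 2 and 3, the sham difference was -0.047 for Actn1 and 0.089 for Actn4, and the difference of TAC effects on Actn4 was -0.063 (-0.083 without Rad KO sham 2 as well). Without Rad KO sham 2 the sham difference of Actn4 was 0.00032.

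For the log2 ratio of Acta1 to Actc1, leaving out each library gave -0.037 to 0.46 for TAC in Rad KO, 0.40 to 1.21 over both labels and -0.14 to 1.48 for Rad KO against WT in sham. Over both labels the lowest of these p-values was 0.0443 (exact permutation), without Rad KO TAC 3. With medians in place of means the sham difference was -0.36. Without WT sham 2 and 3 WT sham was 1 library, the lowest in the ratio, and the values have no test: 3.82 for TAC in WT, 1.98 over both labels, 3.03 between the labels in sham hearts and -3.67 for the difference of TAC effects (-3.81 without Rad KO sham 2 as well). The gene lists without WT sham 2 and 3 were an alternative chosen after seeing the data.

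Counts over all genes moved as well: in WT 442 genes passed, 910 with DESeq2, 782 with no filter and 15 to 614 on leaving out a library. More genes were tested with DESeq2 (24273) and with no filter (24279) than in the main WT fit (14323). In Rad KO 239 passed, 721 with DESeq2, 571 with no filter, 431 with the block and 9 to 536 on leaving out a library. Over both labels 1637 passed, and 972 to 2033 on leaving out a library. With 3 or 4 libraries a group, the SDs of the members reached 67.9% of the mean (Acta1 in WT sham). Depth was not varied.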
